A study of Mus musculus with 11 samples.

Results

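The genes described here are the 5 subunits of the transcription factor NF-κB (Nfkb1, Nfkb2, Rel, Rela and Relb) and 5 genes that restrain or adjust it (Nfkbia, Nfkbie, Nfkbiz, Bcl3 and Tnfaip3). They were chosen by gene name, with earlier results of these data known. All 10 were found among the 25121 genes of the deposited table. The cells were mouse macrophages differentiated from bone marrow. They sat in a porous Transwell insert, and primary epithelial cells of the renal proximal tubule grew in the chamber beneath. In 5 libraries (replicates 2 to 6) the cultures had received hemin, a stable chloride salt of oxidised heme, at 10 µM together with the profibrotic cytokine TGF-β1 at 5 ng/mL. In 6 libraries (replicates 1 to 6) they had received TGF-β1 at 5 ng/mL alone. Both treatments lasted 72 h. TGF-β1 and the epithelial cells were common to both groups, and no group held macrophages alone, so a response of the macrophages to hemin itself and one passed on by the epithelial cells cannot be told apart. Strain, age and sex of the mice and the method of differentiation are not given in the sources at hand. The comparison asks which macrophage transcripts differ when hemin is added under TGF-β1.

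NF-κB proteins share a Rel homology region, bind DNA as dimers and drive genes of inflammation, survival and their own restraint. In resting cells IκB proteins hold the dimers in the cytoplasm. In the classical pathway, signals from TNF, IL-1 and Toll-like receptors activate the IκB kinase complex, IκBα is destroyed, and dimers such as RelA with p50 enter the nucleus, where they induce Nfkbia and Tnfaip3 as negative feedback. In the alternative pathway, receptors such as the lymphotoxin β receptor stabilise the kinase NIK, the p100 precursor encoded by Nfkb2 is processed to p52, and RelB with p52 enters the nucleus. In macrophages these pathways are known for their part in the response to microbes and to cytokines. Protein amounts, processing of the precursors and nuclear location were not measured, and the values below are transcript levels.

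Several of these genes are known to be transcribed by NF-κB, so the start regions of the members are shown first. RefSeq windows of GRCm38.p6, an earlier build than that of the deposited table, running from 250 bases before to 50 bases after an annotated start, were matched by symbol for 7 of the 10 members (10 windows). No window was matched for Nfkb1, Relb and Nfkbiz. The κB consensus, read on both strands, occurred in the windows of 6 of these 7 genes, namely Nfkb2, Rel, Nfkbia, Nfkbie, Bcl3 and Tnfaip3, and was not found in that of Rela. Among all 27025 genes with such a window it occurred in 9.55%, and among all 32851 windows in 8.46%. The windows below are from the 3 members that rose with hemin and had one, followed by Nfkbia, which did not pass the test. The third Nfkb2 window, which overlaps the second and holds a match already shown there, is left out. Each is written 5′ to 3′ on the strand of the gene, with every match in capitals; matches that overlap, as those on opposite strands do in the first, form one run.
Nfkb2, first start, chr19:46304487-46304786, plus strand: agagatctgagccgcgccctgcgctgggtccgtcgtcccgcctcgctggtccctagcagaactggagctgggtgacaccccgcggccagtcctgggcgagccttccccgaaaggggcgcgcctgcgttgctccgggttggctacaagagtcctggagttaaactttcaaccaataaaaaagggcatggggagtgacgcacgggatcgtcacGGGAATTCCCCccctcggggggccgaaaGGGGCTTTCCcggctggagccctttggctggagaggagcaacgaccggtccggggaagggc
Nfkb2, second start, chr19:46305445-46305744, plus strand: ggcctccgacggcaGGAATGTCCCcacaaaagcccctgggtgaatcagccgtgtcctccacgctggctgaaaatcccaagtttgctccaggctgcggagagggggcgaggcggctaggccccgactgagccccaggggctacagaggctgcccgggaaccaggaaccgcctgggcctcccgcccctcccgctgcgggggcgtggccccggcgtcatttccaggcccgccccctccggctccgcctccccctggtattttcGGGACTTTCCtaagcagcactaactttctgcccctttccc
Nfkbie, chr17:45555450-45555749, plus strand: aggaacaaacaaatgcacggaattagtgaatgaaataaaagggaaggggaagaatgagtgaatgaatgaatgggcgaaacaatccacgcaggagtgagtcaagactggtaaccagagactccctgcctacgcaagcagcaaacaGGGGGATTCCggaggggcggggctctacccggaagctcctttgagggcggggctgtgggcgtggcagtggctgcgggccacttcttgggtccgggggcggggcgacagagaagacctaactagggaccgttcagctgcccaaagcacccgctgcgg
Bcl3, chr7:19822706-19823005, minus strand: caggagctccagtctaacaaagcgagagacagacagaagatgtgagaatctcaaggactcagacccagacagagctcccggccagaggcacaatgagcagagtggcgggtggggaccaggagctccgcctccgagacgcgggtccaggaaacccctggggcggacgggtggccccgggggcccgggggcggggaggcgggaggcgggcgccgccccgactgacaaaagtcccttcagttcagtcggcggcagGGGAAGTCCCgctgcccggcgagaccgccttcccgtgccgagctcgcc
Nfkbia, chr12:55492598-55492897, minus strand: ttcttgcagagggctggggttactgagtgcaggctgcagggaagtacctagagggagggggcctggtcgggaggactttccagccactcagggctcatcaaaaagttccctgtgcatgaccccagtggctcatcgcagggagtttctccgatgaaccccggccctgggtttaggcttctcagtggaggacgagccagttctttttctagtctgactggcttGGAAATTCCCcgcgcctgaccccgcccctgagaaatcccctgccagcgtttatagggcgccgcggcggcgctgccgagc
In the first Nfkb2 window the matches began 39, 38 and 11 bases before the start, in the Nfkbia window 29 bases before it and in the Nfkbie window 106 bases before it. A match was present both in the members that rose and had a window (3 of 3) and in those that did not pass (3 of 4), and it is a description of letters, with no measure of binding here.

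Levels are CPM, counts scaled to library size after TMM normalisation, unless FPKM, the authors' value scaled to transcript length as well, is named. They are given as mean ± SD with n = 5 libraries for TGF-β1 with hemin and n = 6 for TGF-β1. A log2 fold change is hemin over TGF-β1, and a gene passed where the edgeR quasi-likelihood test gave an adjusted p under 0.05. Total counts were 66.7 to 96.6 M per library with hemin and 65.5 to 71.5 M with TGF-β1. Over all 15132 genes tested, 1276 were higher with hemin (8.43%) and 870 lower (5.75%). That split depends on the scale: in limma on log2(FPKM + 1), with FPKM as deposited, 685 of 10499 genes were higher (6.52%) and 2186 lower (20.8%), and the median over all genes was -0.09, against -0.00 in the main test. Nothing in the labels says that the libraries of a group come from separate animals or cultures. A p-value therefore sets the group difference only against the spread of these samples, and that spread may be technical.

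Transcripts of the members were uneven in level and in response. With hemin, 5 of the 10 were higher, against 8.43% of all genes tested, namely Relb, Nfkb2, Nfkbie, Nfkbiz and Bcl3. None was lower, and 5 did not pass, namely Nfkb1, Rel, Rela, Nfkbia and Tnfaip3. For 3 members, Relb, Nfkb2 and Nfkbie, every hemin library lay above every TGF-β1 library, against 6.29% of all genes. The median log2 fold change of the 10 was 0.28, against -0.00 over all genes. All 10 had passed the filter on low counts. The members and the lists below were chosen with earlier results of these data known, so their counts are descriptive. On FPKM, 9 members were tested, since Nfkbiz was under the FPKM minimum there, and 4 were higher (Relb, Nfkb2, Nfkbie and Bcl3), none was lower, and the median was 0.08. When only genes averaging 5 FPKM or more were tested, of which 14.6% were higher and 12.3% lower, 2 of 5 members were higher and none lower. The RNA is from bulk cultures, in which fewer cells of a type and less RNA per cell cannot be told apart.

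**Figure D1:**
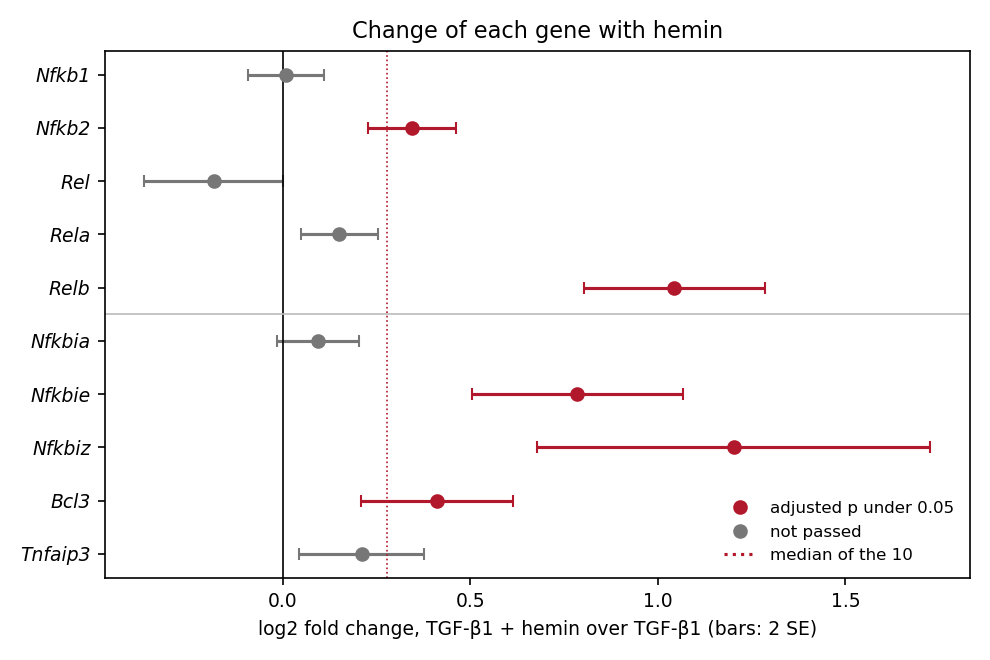
Log2 fold change (TGF-β1 with hemin over TGF-β1) of the 5 subunit genes (upper block) and the 5 inhibitor and feedback genes (lower block), with bars of 2 standard errors on each side. Red points passed the edgeR test at an adjusted p under 0.05, grey points did not, and the dotted line is the median of the 10, 0.28; Nfkbiz at 1.20 and Relb at 1.04 lie farthest to the right.

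The cultures carried the markers of macrophages. All 9 macrophage markers were present, with summed levels of 4911 to 5744 FPKM with hemin and 4087 to 6042 FPKM with TGF-β1, led by the lysozyme gene Lyz2. In the edgeR test 3 of the 9 rose (Adgre1, Cd68 and Cd14), against 8.43% of all genes tested, and none fell, against 5.75%. On FPKM the levels of these 3 overlapped between the groups. Fcgr1, which did not pass in edgeR, lay lower on FPKM without overlap, at 46.0 to 54.0 FPKM with hemin and 55.3 to 62.5 FPKM with TGF-β1. The 6 fibroblast markers read here summed to 29.8 to 53.0 FPKM with hemin and 38.1 to 93.2 FPKM with TGF-β1, and the 8 renal tubular markers to 3.05 to 7.17 FPKM with hemin and 6.22 to 12.2 FPKM with TGF-β1. Acta2, the smooth muscle actin gene, led the fibroblast markers with 25.2 ± 6.07 FPKM with hemin and 27.8 ± 9.18 FPKM with TGF-β1. Without Acta2 the fibroblast sums overlapped, at 12.5 to 22.7 FPKM with hemin and 16.5 to 49.8 FPKM with TGF-β1. None of the 5 fibroblast markers tested passed, and their log2 fold changes ran from -0.71 (Col1a1, edgeR adjusted p = 0.05829) to 0.16 (Col3a1). Cdh1, the E-cadherin gene, led the tubular markers and was the one of them that passed, at 1.95 ± 0.431 FPKM with hemin and 5.39 ± 0.766 FPKM with TGF-β1 (log2 fold change -1.36). The other 5 tubular markers tested had log2 fold changes of -0.22 to 1.01, and without Cdh1 the tubular sums overlapped, at 1.43 to 5.43 FPKM with hemin and 0.737 to 6.80 FPKM with TGF-β1. The 5 dendritic cell markers read here, led by Clec9a, were each under 1 FPKM on average. Their sum was 0.0473 to 0.283 FPKM with hemin and 0.0814 to 0.299 FPKM with TGF-β1. The 2 lymphocyte markers read, led by Cd4, summed to 0.116 to 0.407 FPKM with hemin and 0.145 to 0.487 FPKM with TGF-β1, and the 7 neutrophil markers, led by S100a8, to 4.85 to 6.45 FPKM with hemin and 5.91 to 7.59 FPKM with TGF-β1. Without S100a8 the neutrophil sums were 0.0 to 0.367 FPKM with hemin and 0.0 to 0.182 FPKM with TGF-β1. No marker read was at 0 in all libraries, and the part of the other cell types in the results below was not tested.

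Relb, which encodes RelB, the partner of p52 in the alternative pathway, was the subunit with the largest change. The gene (ENSMUSG00000002983) lies on chromosome 7 from 19340142 to 19363363, minus strand, in GRCm39, the build of all deposited gene positions below. Relb stood at 8.94, 7.89, 9.46, 9.97 and 9.01 CPM in hemin replicates 2 to 6, against a lowest value of 3.69, a median of 4.29 and a highest value of 5.65 CPM in the TGF-β1 libraries. Every hemin library lay above every TGF-β1 library, and TGF-β1 replicate 4 was the highest of its group. The means were 9.06 ± 0.771 CPM with hemin and 4.39 ± 0.711 CPM with TGF-β1, a 2.06-fold rise (log2 fold change 1.04, SE 0.12; edgeR quasi-likelihood test, adjusted p = 1.535e-05). Among all genes tested, 97.8% had a lower log2 fold change. The counts behind these values were 563 to 916 per library with hemin and 256 to 404 with TGF-β1. The call held in each of the 20 alternative settings in which Relb was tested.

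Nfkb2, which encodes the p100 precursor of p52, the partner of RelB, rose less, and without overlap. The gene (ENSMUSG00000025225, chromosome 19, 46292759 to 46300824, plus strand) stood at 33.3, 33.2, 31.7, 35.7 and 33.2 CPM in hemin replicates 2 to 6. In the TGF-β1 libraries its lowest value was 24.6, its median 26.5 and its highest 28.1 CPM. The hemin libraries lay in a narrow band above all 6 TGF-β1 libraries. The means were 33.4 ± 1.42 CPM with hemin and 26.3 ± 1.39 CPM with TGF-β1, a 1.27-fold rise (log2 fold change 0.35, SE 0.06; edgeR adjusted p = 0.0006178), and the gene passed in all 21 alternative settings. Psd and 4833438C02Rik, whose annotated spans overlap that of Nfkb2, were low and did not pass. Psd averaged 1.02 CPM with hemin and 1.03 CPM with TGF-β1, and 4833438C02Rik 3.18 CPM with hemin and 3.44 CPM with TGF-β1. No source used here gives the strand setting of the authors' counting, so reads of overlapping genes may have been assigned to either.

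The subunits of the classical dimers did not pass. Rela (ENSMUSG00000024927, chromosome 19, 5687511 to 5698158, plus strand) encodes RelA, the main activating subunit. It stood at 97.8, 96.5, 99.5, 97.7 and 89.3 CPM in hemin replicates 2 to 6, against a lowest value of 78.4, a median of 87.1 and a highest value of 95.0 CPM with TGF-β1. Of the 5 hemin libraries, replicate 6 alone lay within the TGF-β1 range, whose upper end was TGF-β1 replicate 4. The log2 fold change was 0.15 (interval of 2 SE, 0.05 to 0.25; edgeR adjusted p = 0.06289). Leaving out either of these libraries moved Rela past the threshold, with an edgeR adjusted p of 0.04451 without hemin replicate 6 and of 0.02449 without TGF-β1 replicate 4. These were the only 2 of the 21 alternative settings in which Rela passed. On log2(FPKM + 1) its log2 fold change was 0.04 (limma adjusted p = 0.5817).

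Nfkb1 (ENSMUSG00000028163, chromosome 3, 135290416 to 135397308, minus strand) encodes p105, the precursor of p50. It stood at 91.8, 95.6, 92.0, 93.0 and 90.8 CPM in hemin replicates 2 to 6, against a lowest value of 81.8, a median of 93.1 and a highest value of 102 CPM with TGF-β1. All hemin libraries lay inside the TGF-β1 range. The log2 fold change was 0.01 (interval -0.09 to 0.11; edgeR adjusted p = 0.9507), and its sign turned on FPKM as deposited (-0.08).

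Rel (ENSMUSG00000020275, chromosome 11, 23686847 to 23720970, minus strand), which encodes c-Rel, was the one member with a negative estimate in the main test. It stood at 22.8, 23.1, 19.7, 17.1 and 20.9 CPM in hemin replicates 2 to 6, against a lowest value of 20.3, a median of 23.5 and a highest value of 26.7 CPM with TGF-β1. The groups overlapped, with hemin replicates 4 and 5 below every TGF-β1 library. The log2 fold change was -0.18 (SE 0.09, edgeR adjusted p = 0.2249). On log2(FPKM + 1), where the median over all genes was -0.09, that of Rel was -0.21 (limma adjusted p = 0.05665).

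**Figure D2:**
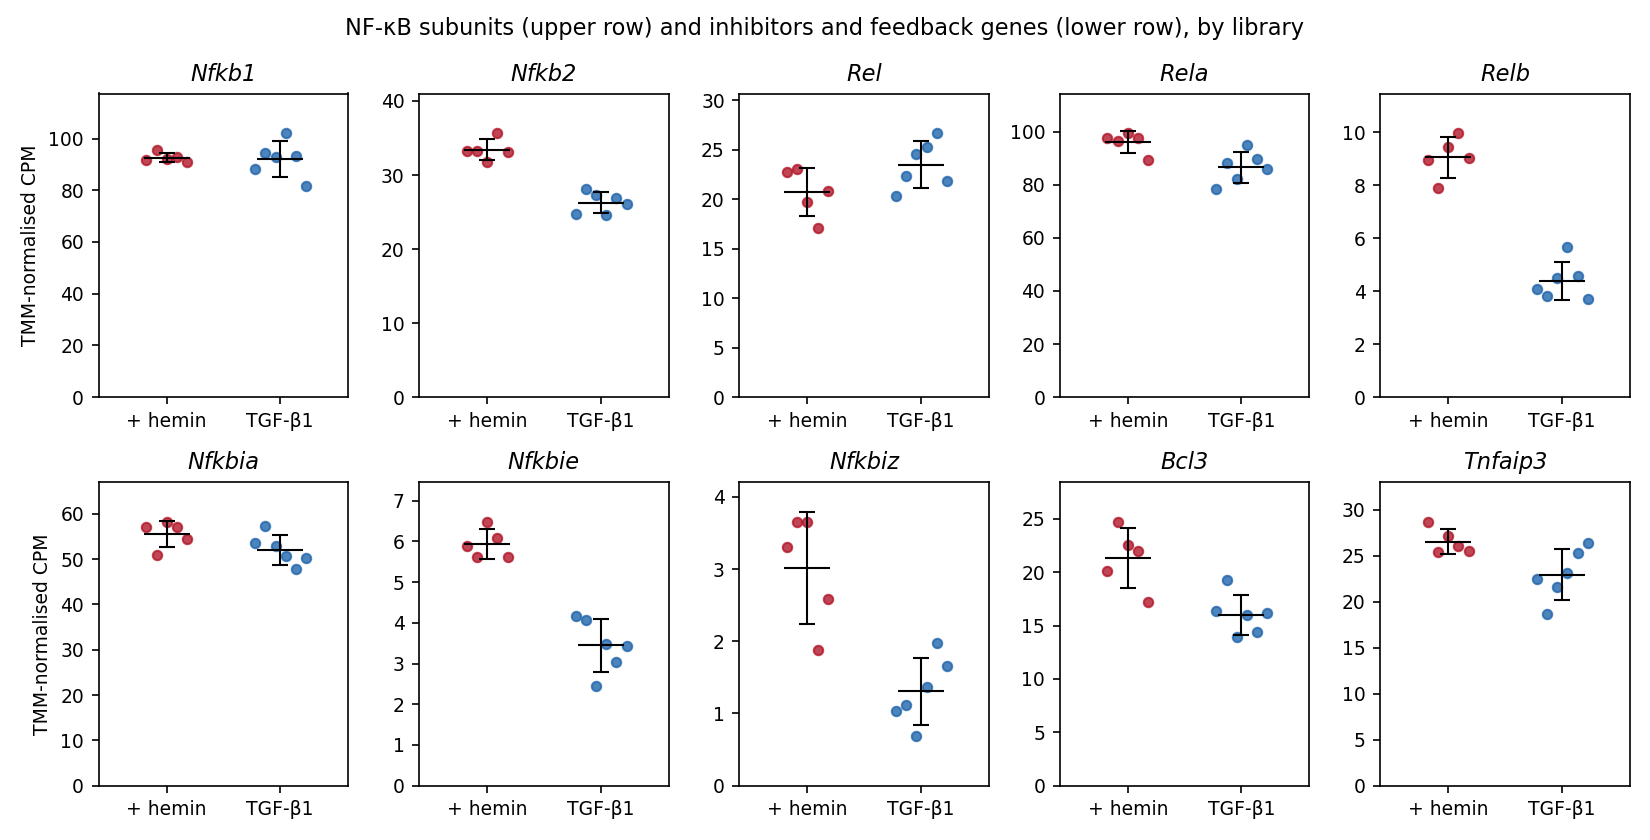
TMM-normalised CPM of each member in every library, TGF-β1 with hemin (red, n = 5) left of TGF-β1 (blue, n = 6), with the mean and SD as black bars and every axis starting at 0. Relb, Nfkb2 and Nfkbie show no overlap between groups, while the Nfkb1 points of the hemin group, 90.8 to 95.6 CPM, lie inside the TGF-β1 range of 81.8 to 102 CPM.

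Set against each other per length, the 5 subunit transcripts differed in make-up between the groups. Their summed level overlapped, at 45.9 ± 1.11 FPKM with hemin and 44.2 ± 3.24 FPKM with TGF-β1. Rela made up most of it, 60.9 ± 1.03% with hemin and 61.5 ± 1.22% with TGF-β1, with overlap between the groups. The Relb share was 4.53 ± 0.391% with hemin and 2.45 ± 0.304% with TGF-β1, without overlap. The Nfkb2 share was 14.2 ± 0.661% with hemin and 12.5 ± 0.903% with TGF-β1, also without overlap. Relb and Nfkb2 together, the pair of the alternative pathway, thus held 17.9 to 19.8% with hemin and 13.7 to 15.8% with TGF-β1. Rel went the other way, with a share of 5.40 ± 0.664% with hemin and 6.86 ± 0.462% with TGF-β1 and no overlap, while the Nfkb1 shares overlapped at 15.0 ± 0.370% with hemin and 16.7 ± 0.774% with TGF-β1. There were 13.5 ± 1.27 FPKM of Rela per FPKM of Relb with hemin and 25.5 ± 3.34 with TGF-β1, again without overlap. Shares and ratios within a library do not depend on how libraries are scaled against each other; these rest on the same libraries as the tests above and were not tested on their own.

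**Figure D3:**
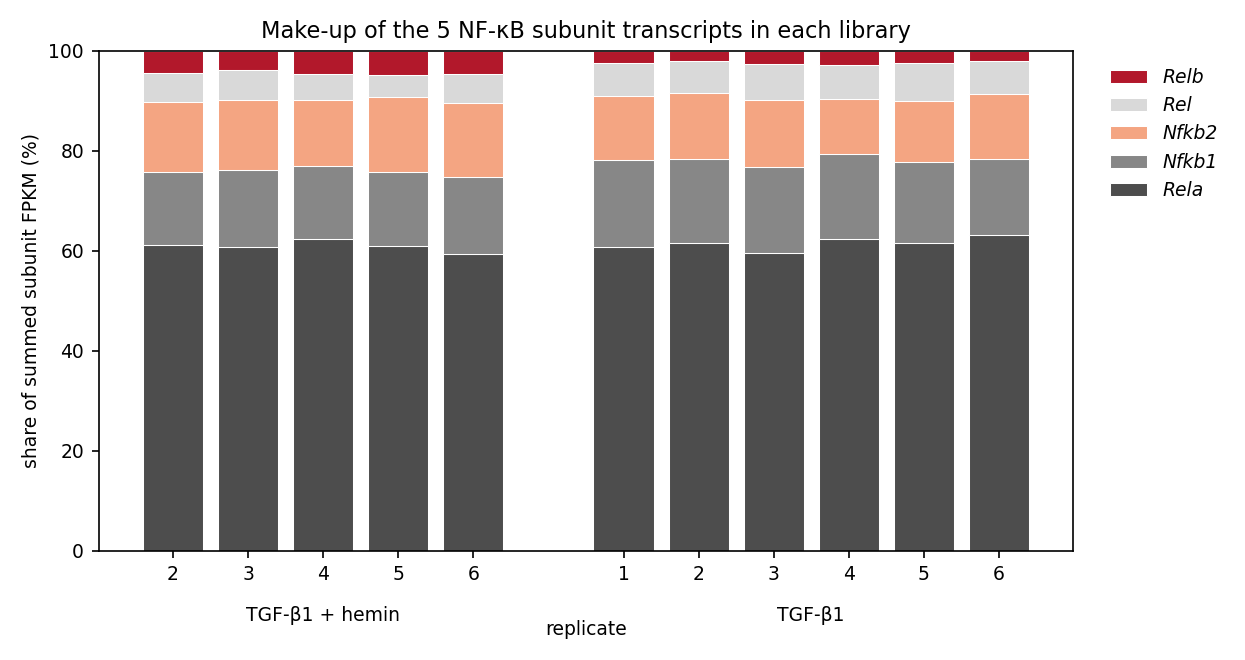
Share of each subunit in the summed FPKM of Nfkb1, Nfkb2, Rel, Rela and Relb (percent), one bar per library, with the 5 hemin libraries left of the 6 TGF-β1 libraries. The Relb segment at the top takes 3.91 to 4.92% in the hemin libraries and 2.10 to 2.92% in the TGF-β1 libraries.

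The cytoplasmic inhibitors differed from each other. Nfkbia (ENSMUSG00000021025, chromosome 12, 55536195 to 55539432, minus strand) encodes IκBα, the fast feedback inhibitor of RelA dimers, and its start region with its κB match is shown above. It stood at 57.0, 51.0, 58.3, 57.1 and 54.5 CPM in hemin replicates 2 to 6, against a lowest value of 47.8, a median of 51.8 and a highest value of 57.3 CPM with TGF-β1. The groups overlapped, and the log2 fold change was 0.09 (interval -0.01 to 0.20; edgeR adjusted p = 0.3058), with the sign turned on FPKM as deposited (-0.01).

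Nfkbie (ENSMUSG00000023947, chromosome 17, 45866629 to 45874095, plus strand) encodes IκBε, an inhibitor that holds RelA and c-Rel dimers and responds more slowly. It stood at 5.87, 5.62, 6.49, 6.09 and 5.61 CPM in hemin replicates 2 to 6, against a lowest value of 2.46, a median of 3.46 and a highest value of 4.17 CPM with TGF-β1. No hemin library reached down to the TGF-β1 range. The means were 5.94 ± 0.364 CPM with hemin and 3.44 ± 0.642 CPM with TGF-β1, a 1.72-fold rise (log2 fold change 0.79, SE 0.14; edgeR adjusted p = 0.0009804). Nfkbia stayed far more abundant per length, at 17.8 ± 0.635 FPKM per FPKM of Nfkbie with hemin and 29.5 ± 5.84 with TGF-β1. The ratio of Nfkbia to Rela FPKM overlapped between groups, at 1.10 ± 0.0578 with hemin and 1.15 ± 0.122 with TGF-β1.

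Nuclear IκB proteins bind NF-κB dimers on DNA and can raise or lower transcription there. The genes of IκBζ and Bcl-3 were higher with hemin, with overlap between the groups. Nfkbid, the gene of a further nuclear IκB counted below among the negative regulators, was at 3.13 ± 0.850 CPM with hemin and 2.11 ± 0.801 CPM with TGF-β1 and did not pass (log2 fold change 0.56; edgeR adjusted p = 0.2039). Nfkbiz (ENSMUSG00000035356, chromosome 16, 55631738 to 55659262, minus strand) encodes IκBζ, a coactivator of late inflammatory genes. It stood at 3.30, 3.66, 3.66, 1.88 and 2.58 CPM in hemin replicates 2 to 6, against a lowest value of 0.686, a median of 1.25 and a highest value of 1.98 CPM with TGF-β1. Hemin replicate 5, at 1.88 CPM, lay under TGF-β1 replicate 5, at 1.98 CPM. The means were 3.02 ± 0.771 CPM with hemin and 1.31 ± 0.461 CPM with TGF-β1, a 2.30-fold rise (log2 fold change 1.20, SE 0.26; edgeR adjusted p = 0.004733). This was the member with the largest fold change and the lowest level, 173 to 261 counts per library with hemin and 48 to 147 with TGF-β1.

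Bcl3 (ENSMUSG00000053175, chromosome 7, 19542387 to 19556695, minus strand) encodes a partner of p50 and p52 homodimers and lies 179 kb from Relb. It stood at 20.1, 24.7, 22.5, 21.9 and 17.2 CPM in hemin replicates 2 to 6, against a lowest value of 13.9, a median of 16.1 and a highest value of 19.3 CPM with TGF-β1. Of the hemin libraries replicate 6 alone fell within the TGF-β1 range, below TGF-β1 replicate 2. The means were 21.3 ± 2.81 CPM with hemin and 16.0 ± 1.88 CPM with TGF-β1, a 1.33-fold rise (log2 fold change 0.41, SE 0.10, edgeR adjusted p = 0.01067). Bcl3 passed in 20 of the 21 alternative settings.

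Tnfaip3 (ENSMUSG00000019850, chromosome 10, 18876658 to 18891158, minus strand) encodes A20, a ubiquitin-editing enzyme that shuts off signalling upstream of the IκB kinases. It stood at 28.7, 25.4, 27.1, 26.0 and 25.5 CPM in hemin replicates 2 to 6, against a lowest value of 18.7, a median of 22.8 and a highest value of 26.4 CPM with TGF-β1. TGF-β1 replicate 6 lay above hemin replicates 3, 5 and 6. The log2 fold change was 0.21 (interval 0.04 to 0.38; edgeR adjusted p = 0.1134).

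Ordered by level per length with hemin, Nfkbia came first (30.9 ± 1.15 FPKM) and Rela next (28.0 ± 0.909 FPKM). Bcl3, Nfkb1 and Nfkb2 followed at 7.70, 6.87 and 6.52 FPKM, and neighbours among these 3 overlapped. Below them stood Tnfaip3 at 3.28, Rel at 2.48, Relb at 2.08, Nfkbie at 1.74 and Nfkbiz at 0.536 FPKM, of which Rel and Relb were the neighbours that overlapped. With TGF-β1 the order differed in that Nfkb1, at 7.36 FPKM, stood above Bcl3, at 6.23 FPKM, but their ranges overlapped in both groups. Nfkbia and Rela, apart with hemin, overlapped with TGF-β1. In that group Relb lay at 1.09 FPKM, clear of Rel at 3.04 FPKM and level with Nfkbie, also at 1.09 FPKM.

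**Figure D4:**
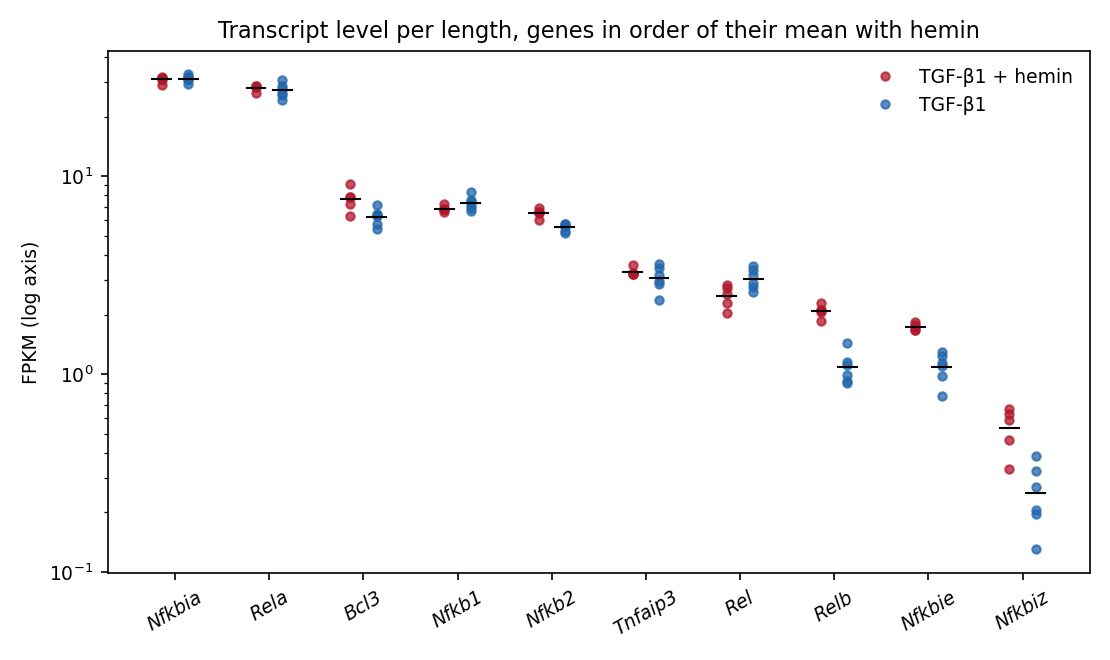
FPKM of each member in every library on a log axis, genes ordered from left to right by their mean with hemin, with hemin libraries (red) left of TGF-β1 libraries (blue) and black lines at the means. Nfkbia and Rela lie near 30 FPKM in both groups, and Nfkbiz is lowest, at 0.536 FPKM with hemin and 0.251 FPKM with TGF-β1.

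Across the 11 libraries, the 5 genes whose log2 CPM followed Relb most closely, among 10396 tested genes with a mean of at least 1 FPKM, were Cd24a, Tnf, Itgb7, Clcn7 and Slc6a12. Their Pearson correlations with Relb were 0.983, 0.978, 0.976, 0.975 and 0.975. These libraries fall into the 2 treatment groups, and after the group means were taken out the correlations were 0.79, 0.73, 0.69, 0.71 and 0.68 in the same order of genes. The genes were picked as the highest over these same libraries, so high values are in part built into the choice. Tnf, which encodes a cytokine that activates the classical pathway, stood at 9.32 to 12.0 CPM with hemin and at 2.08 to 4.20 CPM with TGF-β1. Itgb7, an integrin gene, stood at 28.4 to 32.4 CPM with hemin and at 8.54 to 13.4 CPM with TGF-β1.

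Upstream of the members, most receptors, adaptors and kinases of the classical pathway did not pass. With hemin 4 of 25 tested genes rose and 2 fell, against 8.43% higher and 5.75% lower over all genes, and 19 did not pass, with a median log2 fold change of -0.03. Ikbkg, which encodes the regulatory subunit NEMO of the IκB kinase complex, was higher at 85.8 ± 4.36 CPM with hemin and 46.3 ± 5.00 CPM with TGF-β1 (log2 fold change 0.89, SE 0.07; edgeR adjusted p = 2.324e-07). Its span overlaps that of G6pdx on the opposite strand, whose level was 253 ± 12.6 CPM with hemin and 229 ± 11.6 CPM with TGF-β1 (log2 fold change 0.15; edgeR adjusted p = 0.05427). Without the strand setting, reads of the pair cannot be told apart, so the Ikbkg value is uncertain. The genes of the catalytic kinases, Chuk and Ikbkb, had log2 fold changes of -0.00 and 0.07 and did not pass.

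Both TNF receptor genes were higher. Tnfrsf1b was at 329.8 ± 8.20 CPM with hemin and 237 ± 7.92 CPM with TGF-β1 (log2 fold change 0.47), and Tnfrsf1a at 198 ± 7.93 CPM with hemin and 170.3 ± 8.85 CPM with TGF-β1 (0.22). Tbk1, which encodes an IκB kinase-related kinase, was the remaining riser (0.26). The genes that fell act between receptors and kinases. Traf6, a ubiquitin ligase of the IL-1 and Toll-like receptor route, was at 36.2 ± 3.58 CPM with hemin and 47.7 ± 4.14 CPM with TGF-β1 (log2 fold change -0.40). Tab2, an adaptor of the kinase TAK1, fell by 0.16 on the log2 scale. On log2(FPKM + 1), 2 of 24 were higher and 5 lower, which is close to the 6.52% and 20.8% of all genes on that scale.

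In the alternative pathway list of 10 genes, 3 rose, 1 fell and 6 did not pass, against 8.43% higher and 5.75% lower over all genes, and the median log2 fold change was 0.05. Those that passed include genes known to hold the pathway back. Traf3 and Birc3, which encode parts of the complex that marks NIK for destruction, had log2 fold changes of 0.44 and 0.39 (edgeR adjusted p = 0.003552 for Traf3 and 0.004657 for Birc3). Birc3 levels did not overlap, at 18.4 ± 2.17 CPM with hemin and 14.1 ± 0.733 CPM with TGF-β1, while those of Traf3 did. Tnfsf13b, which encodes the ligand BAFF, was at 5.98 ± 0.655 CPM with hemin and 3.91 ± 0.999 CPM with TGF-β1 (0.61). Otud7b, which encodes a deubiquitinase that protects TRAF3, fell by 0.35 on the log2 scale. Map3k14, the gene of NIK itself, stood at 2.89 ± 0.265 CPM with hemin and 4.09 ± 0.921 CPM with TGF-β1 and did not pass (log2 fold change -0.50; edgeR adjusted p = 0.06033). Ltbr, the lymphotoxin β receptor gene, had a log2 fold change of 0.10 and did not pass either. On log2(FPKM + 1), 2 of 8 were higher and 3 lower, against 6.52% and 20.8% of all genes.

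Among 17 further negative regulators of NF-κB signalling, 8 rose, 1 fell and 8 did not pass, with a median log2 fold change of 0.27. Over all genes 8.43% were higher and 5.75% lower. Tnip3, which encodes an A20-binding inhibitor of NF-κB, had the largest change, at 16.1 to 21.2 CPM with hemin and 3.58 to 6.17 CPM with TGF-β1, a 4.04-fold rise (log2 fold change 2.02, SE 0.13; edgeR adjusted p = 2.953e-08). Its relative Tnip1 was at 129.9 ± 7.73 CPM with hemin and 87.9 ± 7.18 CPM with TGF-β1 (0.56). Zc3h12a, which encodes Regnase-1, a nuclease that cuts inflammatory mRNAs, was at 11.3 ± 1.29 CPM with hemin and 4.63 ± 1.19 CPM with TGF-β1, 2.43-fold higher (log2 fold change 1.28, SE 0.16; edgeR adjusted p = 2.71e-05). Irak3, the gene of the inhibitory kinase IRAK-M, had a log2 fold change of 0.45, but overlaps Tmbim4 on the opposite strand, which also rose (0.40). Itch, which encodes a ubiquitin ligase that works with A20, fell by 0.32 on the log2 scale. On log2(FPKM + 1), 6 were higher and 3 lower, against 6.52% and 20.8% of all genes.

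Of 34 genes listed as known targets of NF-κB, 31 were tested. Of these, 14 rose, against 8.43% of all genes, 3 fell, against 5.75%, and the other 14 did not pass; the median log2 fold change was 0.35. Of the 13 targets averaging 5 FPKM or more, 4 were higher and 3 lower, against 14.6% and 12.3% of all genes so filtered, with a median of -0.01. Tnf was at 10.5 ± 1.15 CPM with hemin and 2.81 ± 0.762 CPM with TGF-β1, a 3.74-fold rise (log2 fold change 1.90, SE 0.16; edgeR adjusted p = 5.125e-07). Clec4e, which encodes the receptor Mincle for mycobacterial glycolipid, was at 33.1 ± 3.24 CPM with hemin and 13.9 ± 2.38 CPM with TGF-β1 (1.25). Ier3, an immediate early gene, and Tnfaip2, a TNF-induced gene, had log2 fold changes of 0.63 and 0.61. By log2 fold change the largest rises were those of Saa3 (4.29), Cxcl1 (4.06), Cxcl3 (3.32) and Cxcl2 (3.31). These genes were low, averaging 0.493, 0.125, 2.05 and 1.30 FPKM over all libraries in that order. The targets moved in both directions. Irf1, the interferon regulatory factor 1 gene, was at 18.5 ± 1.67 CPM with hemin and 24.4 ± 0.784 CPM with TGF-β1 (log2 fold change -0.40; edgeR adjusted p = 0.0008358). The survival genes Bcl2a1d and Bcl2a1b, near-identical copies whose reads the counting may have split, were at -0.30 and -0.19. Il1b and Il6, cytokine genes at the low end of the list, had log2 fold changes of 0.13 and -1.38 and did not pass, with Il6 at 0 to 27 counts per library with hemin and 0 to 38 with TGF-β1. TGF-β1 replicate 4 was the highest of the 6 TGF-β1 libraries for 13 of the 31 targets (41.9%), against 17.4% of all genes tested. Without it, 16 targets were higher and 4 lower, against 7.82% and 4.92% of all genes.

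**Figure D5:**
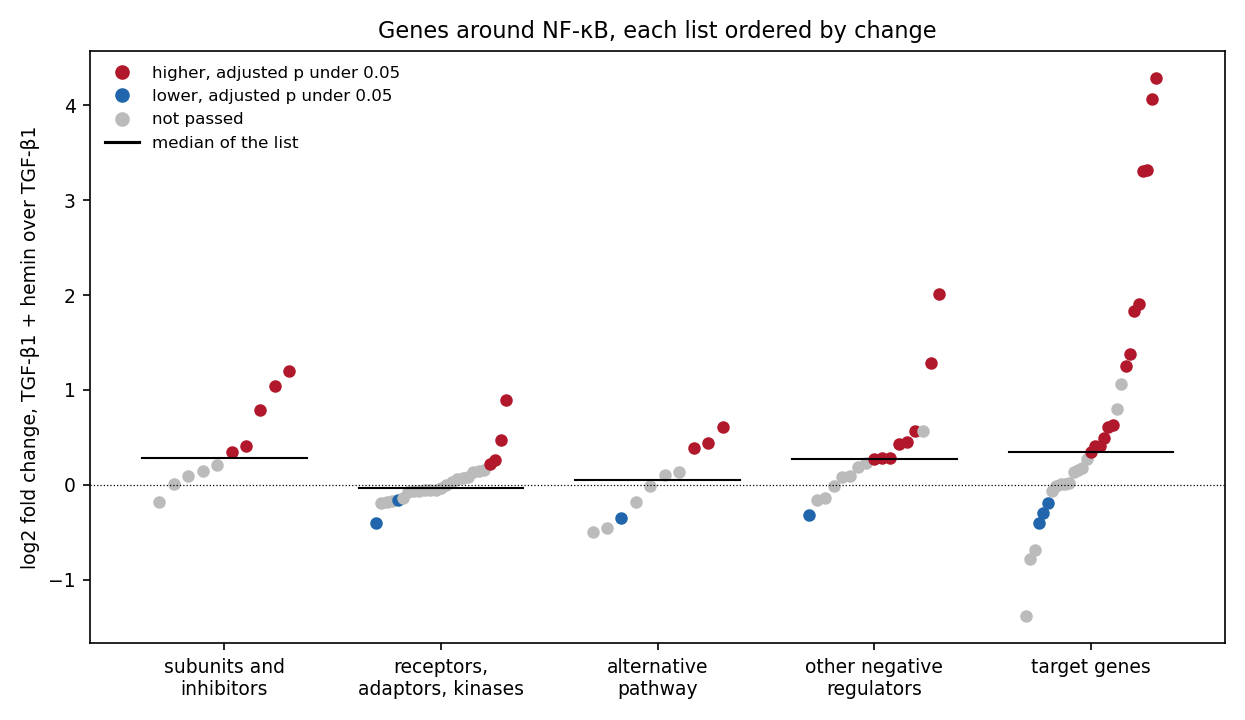
Log2 fold change (TGF-β1 with hemin over TGF-β1) of each tested gene in the 10 members and the 4 lists around them, ordered within each list, with a black line at each median. Red and blue points passed the edgeR test higher or lower with hemin; the medians run from -0.03 in the receptors, adaptors and kinases to 0.35 in the targets.

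A wider set, the genes annotated to the KEGG NF-κB signalling pathway in the deposited table, was counted after the data had been seen, and the annotations of 21 genes were not used. Of 91 tested genes 18 were higher and 11 lower, against 8.43% and 5.75% of all genes, with a median log2 fold change of 0.01. It includes 6 of the members, and without them 16 of 85 were higher and 11 lower. On log2(FPKM + 1), 10 of 74 were higher and 19 lower, against 6.52% and 20.8% of all genes. At a mean FPKM of at least 5, 7 of 40 were higher and 9 lower, against 14.6% and 12.3%.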

How the data were processed

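Polyadenylated RNA of 11 libraries was copied to cDNA with a dUTP-marked second strand, per the labels' protocols. The submitters' processing notes name, with no role or order, the genome build GRCm39, the trimmer cutadapt 1.9, the read checker FastQC 0.11.9, the aligner HISAT2 2.2.1, the assembler StringTie 2.1.6 and the count model DESeq2. The authors deposited raw whole-number counts and FPKM values for each gene in each library. How reads were counted, with which strand setting, annotation release and filter, no source used here says.

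The counts were tested with edgeR 4.0.16 under R 4.3.3: genes were kept by filterByExpr (minimum count 10, minimum total count 15), libraries were scaled by TMM, and the quasi-likelihood F test had the group as its single term. All 11 libraries entered, 15132 genes were tested, and 2-sided p-values were adjusted by Benjamini-Hochberg over all of them, with a threshold of 0.05. The procedure was tested on simulated data. Deposited FPKM, being per length, served to compare levels between genes. Groups follow the title prefixes and the 2 conditions of the design text. Each pair of libraries within a group differed by far more than counting error (chi-square per degree of freedom of 27.0 to 186).

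The members and lists were chosen with earlier results of these data known. Named are all members, up to 4 risers and 4 fallers of each list by adjusted p, each marker list's most abundant gene and the 5 genes most like Relb. Other genes (G6pdx, Psd, 4833438C02Rik, Tmbim4, Chuk, Ikbkb, Map3k14, Ltbr, Nfkbid, Saa3, Cxcl1, Cxcl3, Cxcl2, Il1b, Il6, Adgre1, Cd68, Cd14, Fcgr1, Col1a1, Col3a1, Nfatc3, Apoc2 and Apoe) were named after their values had been seen. Alternatives were DESeq2 1.42.0, its size factors, upper-quartile factors, other filters, robust dispersions, a replicate block, limma 3.58.1 on log2(FPKM + 1) and log2(FPKM + 0.1), and libraries left out. Start windows are from RefSeq, GRCm38.p6, and were not joined to deposited positions.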

Additional observations from a re-analysis of the deposited data

Results flagged for a closer look

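Of 84 pairs of a named gene and a group examined, 4 held a library that stood apart from the others of its group by Dixon's criterion, which chance meets in about 1 in 20 groups. Rela was lowest in hemin replicate 6, at 89.3 CPM, with the other hemin libraries at 96.5 to 99.5 CPM. Ikbkg was lowest in TGF-β1 replicate 2, at 36.6 CPM, with the others of that group at 46.2 to 50.9 CPM. Tab2 was highest in TGF-β1 replicate 4, at 143 CPM, with the others at 128 to 132 CPM. Cdh1 was highest in hemin replicate 3, at 13.5 CPM, with the other hemin libraries at 8.54 to 9.91 CPM.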

How the results depend on the processing

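Across 21 alternatives, Nfkb2 passed in all of them and Relb, Nfkbie and Nfkbiz in every one in which they were tested (20, 20 and 18). Requiring a mean FPKM of at least 5 left fewer genes to test and fewer calls, 2 of 5 members (both higher), 0 of 2 alternative pathway genes, 5 of 9 negative regulators (4 higher, 1 lower), 7 of 13 targets (4 higher, 3 lower) and 16 of 40 KEGG genes (7 higher, 9 lower). Of all genes so filtered, 14.6% were higher and 12.3% lower. Bcl3 was lost with the replicate block (log2 fold change 0.42, edgeR adjusted p = 0.0515), where 4 members and 1543 genes in all were called. Deviations from the group means correlated between same-numbered libraries at 0.081, -0.083, 0.12, -0.13 and 0.14. By these deviations 1 of 5 hemin libraries correlated best with its own number. Such values cannot settle whether equal numbers mark paired libraries. Rela passed without TGF-β1 replicate 4 (0.18) and without hemin replicate 6 (0.18). The sign of Nfkb1, never called, turned to -0.095 and -0.085 in limma on log2(FPKM + 0.1) and log2(FPKM + 1), to -0.017 with the FPKM minimum, to -0.00088 with the block and to -0.0047 with upper-quartile factors, and ran from -0.023 to 0.040 as single libraries were left out. Nfkbia, also never called, was at -0.013 in both limma settings. The cause was not tested. Leaving out single libraries gave 5 to 6 called members and 1704 to 2169 genes in all. Leaving out both deep hemin libraries (replicates 5 and 6) gave 5 members and 1447 of 15775 genes in all. Depth limits Nfkbiz most, with as few as 48 counts in a library.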

Other observations

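Beyond the 10 members, the deposited table annotates 5 further genes to the Rel homology family, Nfat5 and Nfatc1 to Nfatc4, which encode the NFAT factors. One of these passed: Nfatc3 was at 64.6 ± 1.95 CPM with hemin and 74.2 ± 2.93 CPM with TGF-β1 (log2 fold change -0.20, SE 0.04; edgeR adjusted p = 0.004343). The other 4 had log2 fold changes of -0.25 to -0.11 and did not pass.

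Relb and Bcl3, both higher with hemin, lie 179 kb apart on chromosome 7 with 11 annotated genes between them. Of the 7 that were tested none was higher, against 8.43% of all genes, and 2 were lower, against 5.75%. These were Apoe, the apolipoprotein E gene, at 955 ± 95.7 CPM with hemin and 1450.0 ± 370.4 CPM with TGF-β1 (log2 fold change -0.60; edgeR adjusted p = 0.005263), and Apoc2, an apolipoprotein gene whose span overlaps that of Apoc2l, at 30.1 ± 4.03 CPM with hemin and 42.4 ± 6.91 CPM with TGF-β1 (-0.49).

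Among the members, TGF-β1 replicate 4 was the highest of the 6 TGF-β1 libraries for 3 of 10 genes (Nfkb1, Rela and Relb), as was TGF-β1 replicate 2 for 3 others (Nfkb2, Nfkbia and Bcl3). Replicate 4 was highest for 6 of the 17 further negative regulators, and over all genes tested it was highest for 17.4% and replicate 2 for 19.6%.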
